A study of Homo sapiens with 12 samples.

Results

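The genes described here are 9 enzymes of nucleotide synthesis, chosen by name and not by their values: CAD, UMPS, IMPDH2, PPAT, PAICS, GART, ATIC, TYMS and RRM2. They are 9 of the 60669 gene IDs in the count table, and all 9 were among the 18720 genes with enough counts to be tested. RNA was sequenced from 6 established cell lines used by the study as ovarian cancer lines, each treated in growth medium with 8 µM quinacrine (QC), an antimalarial drug, or with vehicle for 6 h. The sensitive lines were HeyA8, SKOV3 and OV2008. The resistant lines were their isogenic partners, HeyA8_MDR (carboplatin-resistant), SKOV3_TR (taxol-resistant) and OV2008_C13 (cisplatin-resistant, derived from OV2008), so that resistance to a different drug goes with each family. There was 1 library per line and treatment, 12 in all, so the replicates of a group are its 3 lines. P-values therefore measure the spread between lines, and no line had replicate cultures of its own.

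Cells make purines by building the ring step by step on a phosphorylated ribose, and pyrimidines by closing the ring before the ribose is attached. In the purine route PPAT makes the committed step, GART and PAICS each carry several of the middle steps, ATIC closes the ring to give IMP, and IMPDH2 takes IMP toward the guanine nucleotides. In the pyrimidine route CAD, a large multifunctional protein, carries the opening steps and UMPS the closing ones that give UMP. RRM2 is the small subunit of ribonucleotide reductase, which turns ribonucleotides into deoxyribonucleotides, and TYMS makes thymidylate for DNA and is the target of fluoropyrimidine drugs. RRM2 and TYMS transcripts are known to be high in cells that are copying DNA, and CAD is a known target of the transcription factor MYC.

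On the RefSeq annotation of GRCh38.p14, CAD (ENSG00000084774.14) lies at chr2:27217369-27243943 and UMPS (ENSG00000114491.14) at chr3:124730452-124749273. PPAT (ENSG00000128059.8, chr4:56393362-56435615, minus strand) and PAICS (ENSG00000128050.8, chr4:56410507-56464578, plus strand) overlap by 25109 bases, and their nearest starts are 137 bases apart, head to head. GART (ENSG00000159131.17, chr21:33503931-33542893, minus strand) also has a head-to-head neighbour, SON, whose start is 146 bases from the nearest GART start. ATIC (ENSG00000138363.15) lies at chr2:215312059-215368592 with FN1 overlapping it on the other strand, IMPDH2 (ENSG00000178035.12) at chr3:49024325-49029398 and RRM2 (ENSG00000171848.15) at chr2:10122568-10211010. TYMS (ENSG00000176890.16, chr18:657653-673578, plus strand) is overlapped on the other strand by ENOSF1 over 10593 bases and by TYMSOS over 639 bases. The strand setting of the counting is not given in the sources used here, so reads from TYMS and from these antisense genes may not have been told apart. Processed pseudogene copies of PAICS, PPAT, RRM2 and TYMS held at most 1.15% of the counts of their parent gene in any library.

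The stretches before the starts of these genes are shown because PPAT and PAICS share one and because the QC changes of the members are compared below. They are RefSeq sequences of GRCh38.p14, written 5′ to 3′ on the plus strand. Capitals mark matches to an E-box, CACGTG, or to an E2F-type motif, TTTGGCGC, TTTCCCGC, TTTCGCGC or TTTGCCGC, searched on both strands, with no overlap between matches. The whole stretch between PPAT and PAICS is followed by the 100 bases before CAD, UMPS and TYMS and the 86 bases between ATIC and the start of a lncRNA on its other strand.
PPAT and PAICS, chr4:56435616-56435751: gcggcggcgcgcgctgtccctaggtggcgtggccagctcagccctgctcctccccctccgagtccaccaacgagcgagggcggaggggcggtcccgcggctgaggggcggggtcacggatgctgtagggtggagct
CAD, chr2:27217269-27217368: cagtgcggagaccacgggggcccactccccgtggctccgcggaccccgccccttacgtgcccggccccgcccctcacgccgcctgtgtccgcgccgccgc
UMPS, chr3:124730352-124730451: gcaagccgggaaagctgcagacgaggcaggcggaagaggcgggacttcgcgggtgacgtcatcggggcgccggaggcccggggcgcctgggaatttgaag
ATIC, chr2:215311973-215312058: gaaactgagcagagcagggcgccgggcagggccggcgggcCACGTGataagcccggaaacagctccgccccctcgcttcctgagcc
TYMS, chr18:657553-657652: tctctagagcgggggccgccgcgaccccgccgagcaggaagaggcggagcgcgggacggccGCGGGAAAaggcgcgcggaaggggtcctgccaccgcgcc

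Over whole promoter windows, from 250 bases before to 50 bases after a start, 8 of the 9 genes had an entry, and 3 of these 8 held CACGTG, against 8.77% of the 27305 genes in the table. ATIC held it 46 bases before its start and again 29 bases after it, while the match of PPAT and that of PAICS were the same site, 40 bases after the PAICS start. An E2F-type motif was in the windows of 2 of the 8, against 3.99% of genes. These were TYMS, 39 bases before its start, and GART, 245 bases before an alternative start. No match was found in the windows of CAD, UMPS and RRM2, which says only that these letters are not there.

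The libraries held 17782556 to 30585059 counted reads (median 22289428), and the smallest count of any member was 262. Members are given as CPM, read counts relative to library size, scaled between libraries by edgeR's TMM method. The QC library of HeyA8 stood apart, since it lay part of the way toward HeyA8_MDR. Over the 63 genes that HeyA8_MDR expressed at 8-fold or more of the HeyA8 level with vehicle, the library had moved by a median of 36.7% of the distance, and over the 117 genes with an opposite gap of that size by 53%. For the QC libraries of the other 5 lines, measured against their own partners, these medians were between -0.0243% and 30.5%. Several results that rest on HeyA8, but not all, are therefore given with and without that line. PAX8, from a list of 9 ovarian epithelial markers, was at 324 to 479 CPM in the HeyA8 and SKOV3 families with vehicle. It was at 7.55 CPM in OV2008 and 19.6 CPM in OV2008_C13. The 9 markers together summed to 5468 and 3330 CPM in OV2008 and OV2008_C13, against 1231 to 2452 CPM in the other 4 vehicle libraries. EPCAM, KRT8 and KRT18 were highest in the OV2008 lines with vehicle, while KRT7 and PAX8 were lowest there. The other listed markers did neither. The 7 squamous markers summed to 16610 and 5347 CPM in OV2008 and OV2008_C13, against 18.29 to 158 CPM in the other 4 vehicle libraries, and TP63 and KRT5 stood at 315 and 11200 CPM in OV2008. TP63 was at 0.177 CPM or less in the other families, and KRT5 was at 0 in HeyA8, HeyA8_MDR and SKOV3. The OV2008 lines are thus called by their names here, and not by a tissue. The 8 stromal and blood cell markers with an ID summed to at most 41.45 CPM.

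Per kilobase of annotated exon, IMPDH2 was the most abundant member with vehicle, with a median of 64.3 CPM per kb over the 6 lines, and PPAT the least abundant, with 5.45. PAICS, ATIC and TYMS had medians of 35.6, 33.3 and 30.6 CPM per kb, and CAD and GART of 23.7 and 20.6. RRM2 had a median of 12.6 CPM per kb and ran from 1.2 to 49, the widest range as a ratio. UMPS, with 5.85, stood close to PPAT. PPAT and PAICS therefore differed in median level although their starts are next to each other. The lengths join the exons of all annotated transcripts of a gene, so the order between genes also depends on the annotation. With 1 library per line, neighbours in these orders cannot be told apart by a test.

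**Figure D1:**
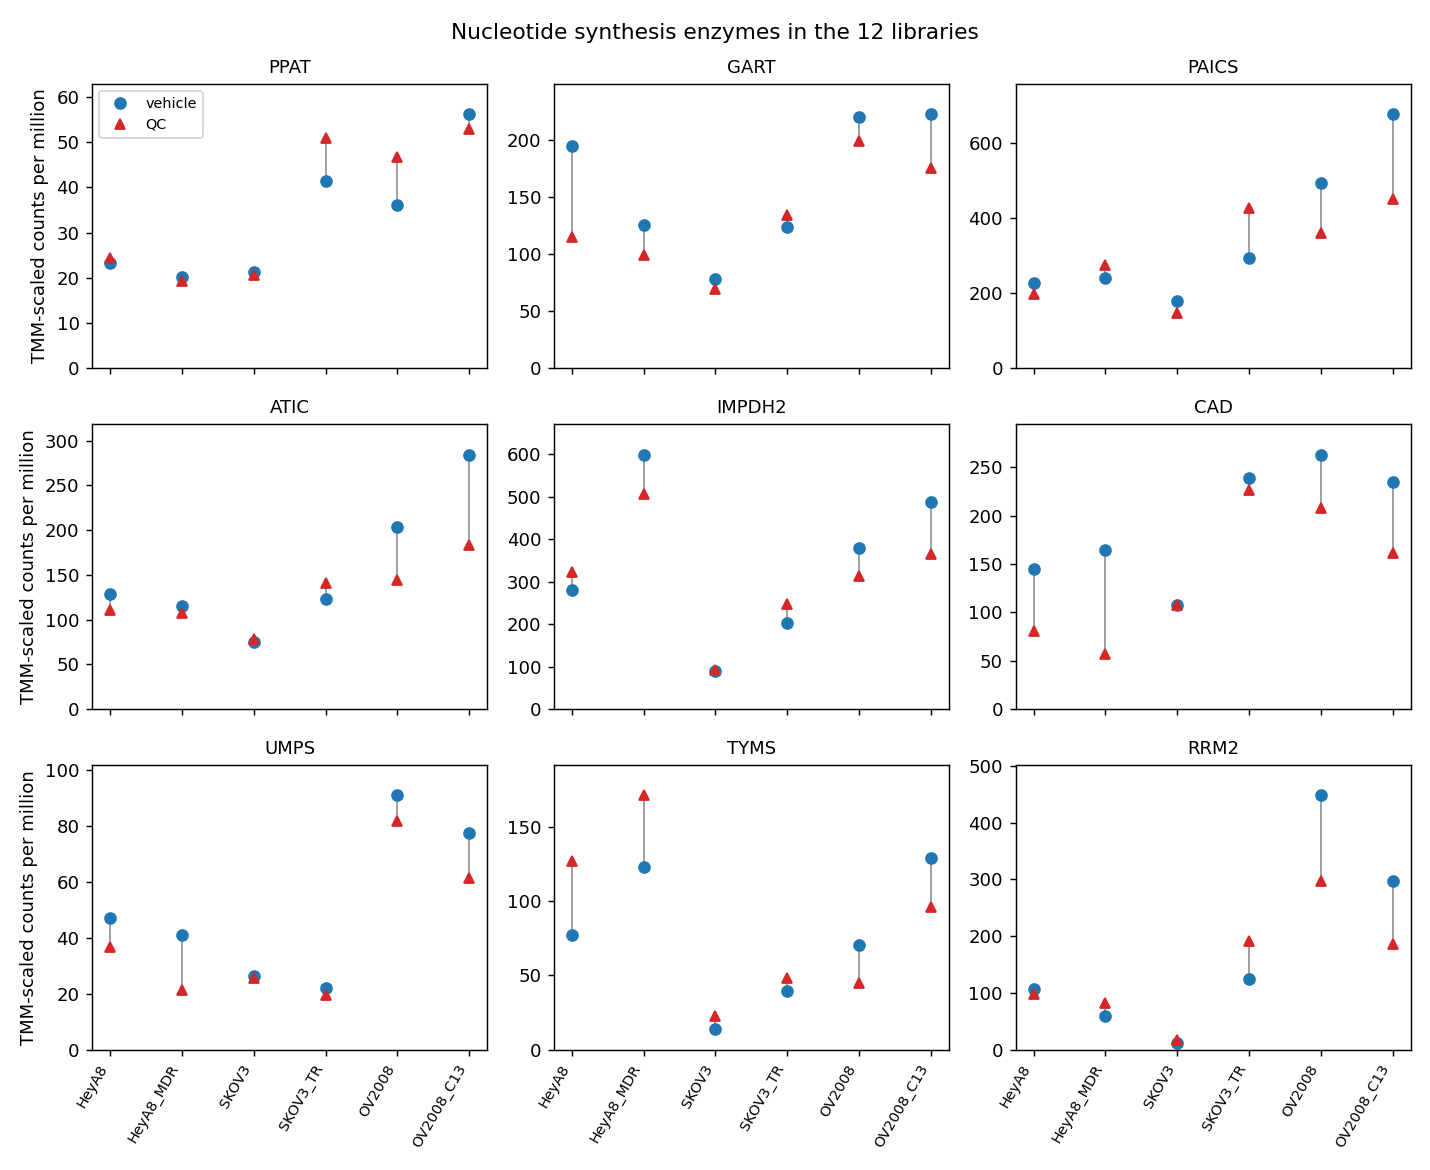
Each panel gives 1 enzyme in CPM (TMM-scaled, y axes starting at 0) for the 6 cell lines on the x axis, with vehicle as circles, QC as triangles and a line joining the libraries of a cell line. CAD and UMPS lay lower with QC in 6 of 6 lines, with CAD in SKOV3 at 107.8 and 107.5 CPM all but level, and RRM2 ran from 10.94 CPM in SKOV3 to 448.2 in OV2008 with vehicle.

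Whether QC changed these transcripts was tested within lines, each QC library against its own vehicle library. CAD and UMPS, the entry and exit of the pyrimidine ring route, were the 2 of 9 members that passed an unadjusted p under 0.05 over the 6 lines, against 15.2% of all genes tested, and both fell. A fall at that threshold was seen for 7.18% of all genes and a rise for 7.99%. CAD changed by a log2 fold change of -0.55 (SE 0.179, 95% confidence interval -0.939 to -0.16) and UMPS by -0.33 (SE 0.133, -0.621 to -0.043), with unadjusted p-values of 0.00956 and 0.0277 from edgeR's quasi-likelihood fit. After Benjamini-Hochberg adjustment over the 18720 genes 0 of the 9 had a p under 0.05, as had 0% of all genes, and the adjusted values were 0.198 for CAD and 0.268 for UMPS. DESeq2 also gave 0 of 9 after adjustment, against 3.54% of the genes to which it gave an adjusted p, and 3 of 9 (CAD, UMPS and GART) before it.

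CAD stood at 144.6 CPM with vehicle and 80.82 with QC in HeyA8, at 164.8 and 57.43 in HeyA8_MDR, at 107.8 and 107.5 in SKOV3, at 239.4 and 226.6 in SKOV3_TR, at 263.2 and 207.7 in OV2008, and at 235.3 and 161 in OV2008_C13. The change was largest in the HeyA8 family, 1.79-fold and 2.87-fold, next in the OV2008 family, 1.27-fold and 1.46-fold, and close to nothing in the SKOV3 family. In HeyA8_MDR 3.6% of all genes changed as far downward as CAD or further. UMPS stood at 46.95 and 36.78 CPM in HeyA8, at 40.87 and 21.41 in HeyA8_MDR, at 26.23 and 25.48 in SKOV3, at 22.06 and 19.37 in SKOV3_TR, at 90.99 and 81.8 in OV2008, and at 77.51 and 61.21 in OV2008_C13. Its groups overlapped widely because the lines differ, but in 6 of 6 lines the QC library was the lower, which held for 4.8% of all genes. The log2 changes of CAD and UMPS ran together over the 6 lines (Pearson's r = 0.958 over 6 lines that share their scaling, a description), while their levels over the 12 libraries did so less (r = 0.464).

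Leaving out HeyA8 kept both calls, with -0.49 for CAD and -0.33 for UMPS. Without HeyA8_MDR they stood at -0.38 and -0.23, and UMPS no longer had an unadjusted p under 0.05. Scaled to RPLP0, the reference transcript of the study's qPCR, the median of all genes moved up by 0.183 on the log2 scale. RPLP0 itself had a fitted change of -0.184 with TMM scaling, and scaling to it holds it level. CAD then stood at -0.36 and UMPS at -0.14, both still under that median, and neither had a call.

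The 5 purine enzymes had no call in edgeR, and DESeq2 called GART alone among them at an unadjusted p under 0.05. PPAT, the committed step, ranged from -0.09 to 0.37 on the log2 scale over the lines, with a fitted change of 0.09 (-0.167 to 0.356). PAICS ranged from -0.58 in OV2008_C13 to 0.54 in SKOV3_TR, where it went from 294 to 426.4 CPM, and its fitted change was -0.13 (-0.46 to 0.194). PPAT and PAICS, for all that their starts are next to each other, had changes with r = 0.245 over the 6 lines, and levels with r = 0.844 over the 12 libraries. GART was lower with QC in 5 of 6 lines (17.3% of all genes were lower in 5 or more), with a fitted change of -0.27 (SE 0.126) and an unadjusted p-value of 0.0511 in edgeR. Its largest change was in HeyA8, from 194.6 to 114.6 CPM, the line whose QC library lay toward HeyA8_MDR (125.5 CPM with vehicle), and without HeyA8 the fit gave -0.17. The neighbour SON stood at -0.08 (adjusted p = 0.759).

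ATIC had a fitted change of -0.20 (-0.48 to 0.084) and IMPDH2 of -0.06 (-0.338 to 0.21). Both were lower with QC in the 2 OV2008 lines, where ATIC went from 203.7 to 144.7 CPM in OV2008 and from 284.2 to 183.7 in OV2008_C13, and higher in SKOV3_TR. These intervals allow falls of up to the size seen for UMPS, so ATIC and IMPDH2 are not shown to have stayed level.

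**Figure D2:**
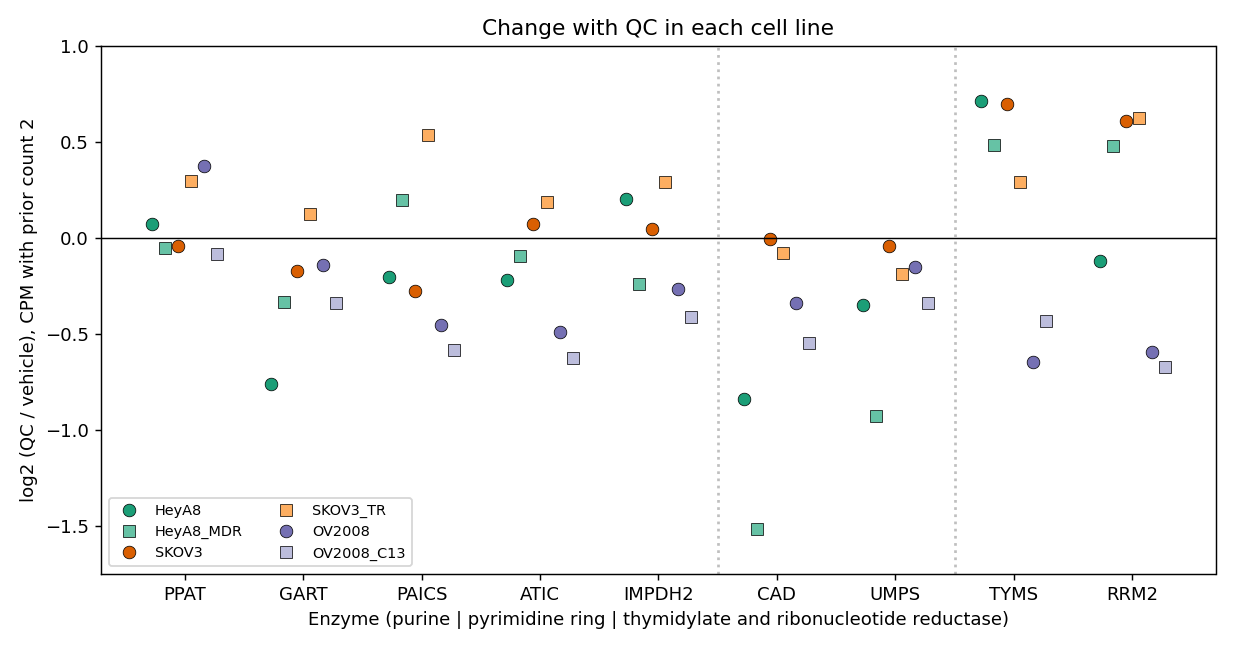
Points give the log2 ratio of QC to vehicle CPM (prior count 2, y axis) for each of the 9 enzymes (x axis) in the 6 lines, circles for sensitive and squares for resistant lines, 1 colour per family. The 6 points of CAD and of UMPS lie at or below 0, and those of TYMS lie above 0 in the HeyA8 and SKOV3 families and below 0 in the OV2008 family.

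TYMS and RRM2, the enzymes of DNA precursor supply, had fitted changes near 0 over the 6 lines, 0.18 (-0.218 to 0.586) and 0.05 (-0.362 to 0.455), with opposite values in different families. TYMS went from 77.35 to 126.9 CPM in HeyA8, from 122.5 to 171.1 in HeyA8_MDR, from 13.74 to 22.35 in SKOV3 and from 39.28 to 48.01 in SKOV3_TR, and from 70.63 to 45.08 in OV2008 and from 129.1 to 95.67 in OV2008_C13. The change was thus upward in 4 of 4 lines of the HeyA8 and SKOV3 families and downward in both OV2008 lines. In HeyA8 it ended close to the 122.5 CPM of HeyA8_MDR with vehicle, the line toward which that QC library lay. RRM2 went from 10.94 to 16.73 CPM in SKOV3 and from 124.1 to 191.2 in SKOV3_TR, from 448.2 to 296.6 in OV2008 and from 297.6 to 186.6 in OV2008_C13, and from 106.2 to 97.79 in HeyA8 and from 58.97 to 82.1 in HeyA8_MDR. The pairs of the SKOV3 and OV2008 families moved alike, and the HeyA8 pair did not.

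A test of whether the QC change differed between the 3 families, chosen after these values were seen, had an unadjusted p under 0.05 for 4 of 9 members, against 14% of all genes. In this test the sensitive and the resistant line of a family stood in for its replicates. The unadjusted p-values were 0.00148 for TYMS, 0.00199 for RRM2, 0.00554 for CAD and 0.03 for ATIC (edgeR quasi-likelihood F test), and the adjusted values were 0.161, 0.169, 0.205 and 0.314, so 0 of 9 passed after adjustment, as did 0% of all genes. DESeq2 gave 4 of 9 after adjustment, against 7.05% of the genes to which it gave an adjusted p. Without HeyA8 the unadjusted count was 5, with UMPS added, and the adjusted count 2, CAD and RRM2.

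Other values that bear on TYMS and RRM2 were read beside them. The 25 S phase genes had median log2 changes of -0.14 in HeyA8, 0.02 in HeyA8_MDR, -0.45 in SKOV3, 0.45 in SKOV3_TR, -0.29 in OV2008 and -0.48 in OV2008_C13, where 25 of 25 were lower. These medians have the sign of the RRM2 change in 5 of 6 lines, with SKOV3 the exception. In HeyA8_MDR, 1 of these 5, the median was near 0 and 12 of 25 genes were lower. TYMS rose in HeyA8 and SKOV3, where the S phase median was below 0. How many other genes follow these medians was not counted. Over the 6 lines 2 of the 25 fell at an unadjusted p under 0.05, a share close to the 7.18% of all genes, CDT1 and CDCA7, with -0.62 and -0.32, while PCNA, MCM6 and CCNE2 had no call. Of the 25 genes 6 differed between families at an unadjusted p under 0.05, against the same 14%. The squamous markers, with their highest sums in the OV2008 family, are given above. The family, the drug of the resistant line and the markers cannot be told apart in this design. The part of the S phase genes in the TYMS and RRM2 values was not tested. In bulk RNA, fewer cells in S phase and less transcript per cell cannot be told apart.

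By line, all 9 members were lower with QC in OV2008_C13, with a median log2 change of -0.43, and 8 of 9 in OV2008, with a median of -0.34 and PPAT as the exception. In SKOV3_TR 7 of 9 were higher, with a median of 0.29 and CAD and UMPS as the exceptions. The medians were -0.21 in HeyA8, -0.10 in HeyA8_MDR and -0.004 in SKOV3. The median of all genes was -0.005 in SKOV3_TR and 0 in each other line, OV2008 and OV2008_C13 included. In OV2008_C13 25 of 25 S phase genes and 12 of 14 salvage genes were lower too, as were 6 of 11 nucleotide breakdown genes. RPLP0, the reference transcript of the study's qPCR, changed by -0.47 in OV2008 and -0.48 in OV2008_C13, and by -0.29 to 0.115 in the other lines. The falls in the OV2008 lines were thus not particular to the members. These are 1 pair of libraries each and have no test.

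The study set resistant against sensitive cells. The effects in sensitive and in resistant lines came from the same fit of all 12 libraries and share its estimate of the spread. A p-value for a group thus does not rest on its 3 lines alone. In the 3 sensitive lines 0 of 9 members had an unadjusted p under 0.05, against 6.59% of all genes, and the smallest was 0.0852, for GART. In the 3 resistant lines 2 of 9 had, against 6.03%, and both fell, against 2.59%. They were again CAD with -0.71 (SE 0.263, -1.284 to -0.135) and UMPS with -0.48 (SE 0.196, -0.913 to -0.056), each with an adjusted p of 0.817. Both rested on HeyA8_MDR, without which CAD stood at -0.33 and UMPS at -0.28 with no call. The difference between resistant and sensitive lines itself was -0.31 (-1.118 to 0.489) for CAD and -0.30 (-0.903 to 0.301) for UMPS, and 0 of 9 members had an unadjusted p under 0.05 for it, against 1.16% of all genes, with an adjusted p of 1. Leaving out HeyA8_MDR turned the CAD difference to 0.08.

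**Figure D3:**
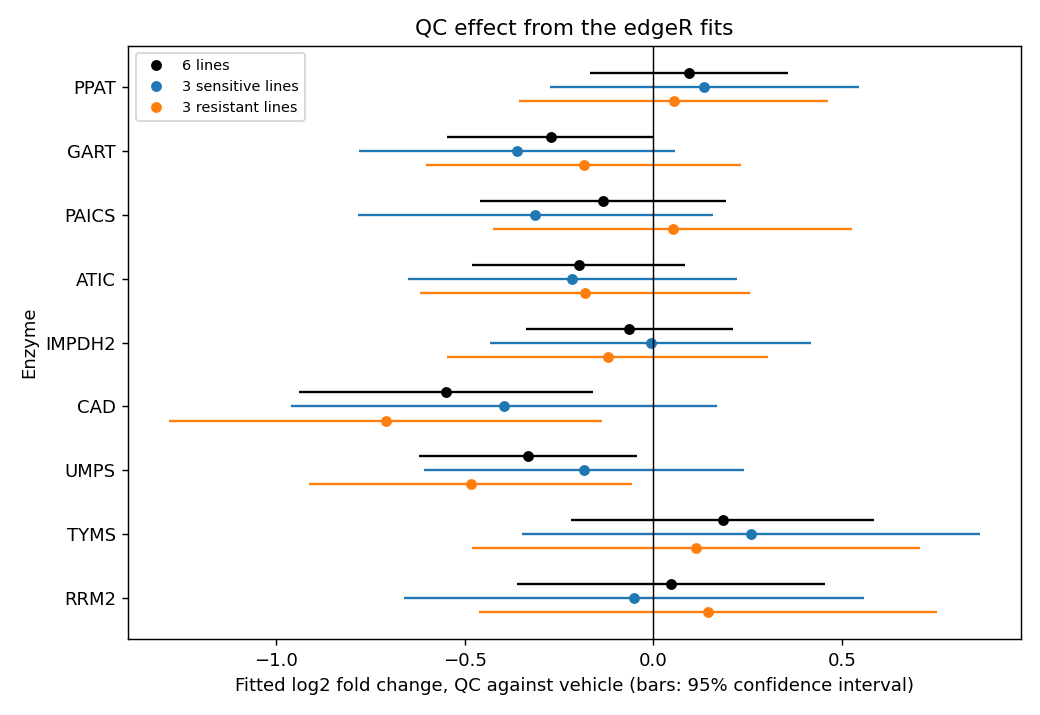
Dots are fitted log2 fold changes with QC (x axis) for each enzyme (y axis) over 6 lines (black), the 3 sensitive (blue) and the 3 resistant lines (orange), and bars are 95% confidence intervals. The intervals of CAD and UMPS lie below 0 over 6 lines and in resistant lines, and the other 7 enzymes have intervals that hold 0 in each of the 3 groups.

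With vehicle alone, 3 of 9 members (TYMS, IMPDH2 and PAICS) were higher in the resistant than in the sensitive partner in 3 of 3 families, a pattern that 13.1% of all genes showed. PAICS had log2 differences of 0.08 in the HeyA8, 0.71 in the SKOV3 and 0.45 in the OV2008 pair and no call. IMPDH2 stood at 280.6 CPM in HeyA8 and 599.3 in HeyA8_MDR, at 89.97 in SKOV3 and 202.8 in SKOV3_TR, and at 378.3 in OV2008 and 487.4 in OV2008_C13. TYMS stood at 77.35 and 122.5, at 13.74 and 39.28, and at 70.63 and 129.1 CPM in the same pairs. As a ratio the gap was widest in the SKOV3 pair for both genes, and narrowest in the OV2008 pair for IMPDH2 and in the HeyA8 pair for TYMS. The fitted log2 difference was 1.02 for TYMS (SE 0.316, 0.244 to 1.789) and 0.88 for IMPDH2 (SE 0.302, 0.144 to 1.621). These were 2 of 9 members at an unadjusted p under 0.05, against 3.71% of all genes, and both were higher, against 1.96%. The adjusted p was 0.994 for both, and 0% of all genes passed after adjustment. The calls did not last when a family was left out. Without the SKOV3 family neither gene had one, without the HeyA8 family IMPDH2 lost it, and without the OV2008 family TYMS lost it. Of the 25 S phase genes 4 were also higher in the resistant vehicle libraries at an unadjusted p under 0.05, against the same 1.96%. TYMSOS, which overlaps TYMS on the other strand, had a fitted log2 difference of 2.57 (SE 0.639, adjusted p = 0.994).

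RRM2 was 11.3-fold higher in SKOV3_TR than in SKOV3 but lower in the resistant line of the other 2 families, so its fitted difference of 0.46 had an interval from -1.92 to 2.847. UMPS was lower in the resistant partner in 3 of 3 families, as were 11.5% of all genes, by log2 differences of -0.20 to -0.25, and it had no call. IMPDH2 and TYMS levels ran together over the 12 libraries (r = 0.929, a description over libraries that share lines).

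**Figure D4:**
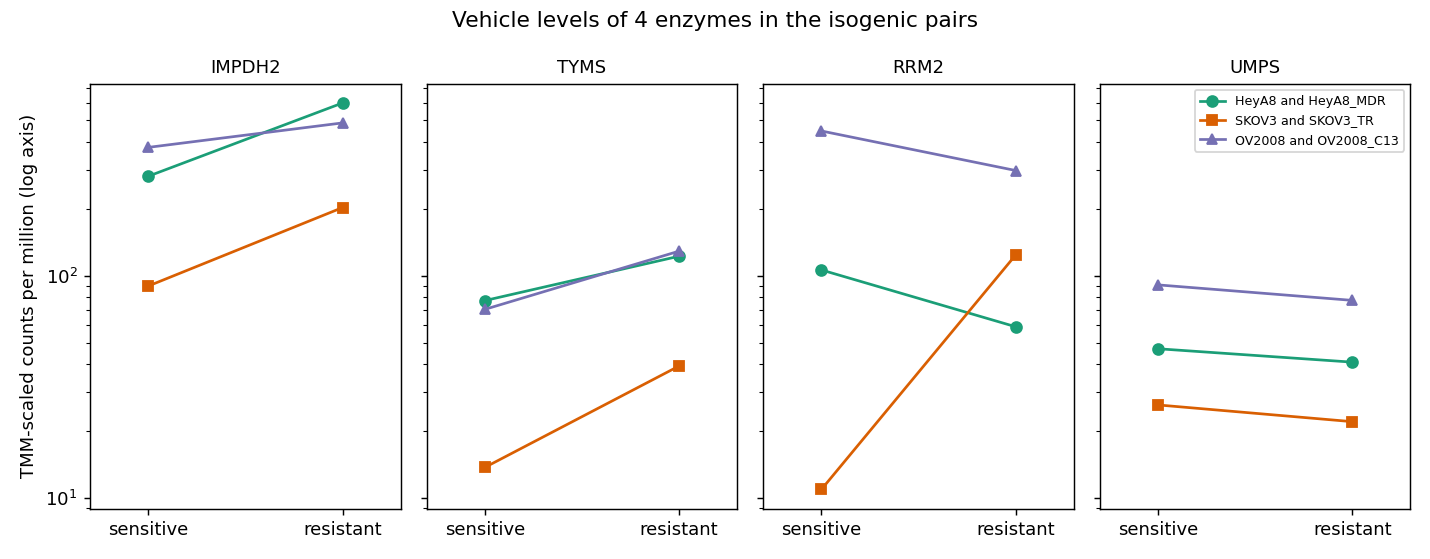
Vehicle levels in CPM (log y axis) of IMPDH2, TYMS, RRM2 and UMPS in the sensitive and the resistant line (x axis) of each family, joined by a line, 1 library per point. IMPDH2 and TYMS rise to the right in 3 of 3 families, RRM2 rises in the SKOV3 family alone, and UMPS declines slightly in each.

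The families themselves were also compared, with the sensitive and the resistant line of a family standing in for its replicates. The p-values thus set families of a single origin each against the gap between partners. For 5 of 9 members (UMPS, PAICS, ATIC, TYMS and IMPDH2) the 3 families differed at an unadjusted p under 0.05 in the vehicle libraries, against 40.9% of all genes, and for 1 of 9, UMPS, after adjustment (adjusted p = 0.0287, edgeR), against 23.1%. UMPS was highest in OV2008 and OV2008_C13, at 90.99 and 77.51 CPM, and lowest in SKOV3 and SKOV3_TR, at 26.23 and 22.06, and the 3 families did not overlap. RRM2 spanned 41-fold between SKOV3 and OV2008, TYMS 9.39-fold between SKOV3 and OV2008_C13, and IMPDH2 6.66-fold between SKOV3 and HeyA8_MDR, while CAD spanned 2.44-fold. SKOV3 was the lowest line for 7 of the 9 members. Neither this order nor the separation of the families for UMPS was counted over all genes, so neither is shown to be particular to these enzymes.

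Of the purine genes outside the 9, PFAS, which acts among the steps of GART, was lower with QC in 6 of 6 lines. It went from 118.8 to 68.74 CPM in HeyA8, from 77.95 to 51.64 in HeyA8_MDR, from 31.78 to 21.72 in SKOV3, from 25.1 to 24.35 in SKOV3_TR, from 145.1 to 81.89 in OV2008 and from 125.9 to 62.98 in OV2008_C13, with a fitted change of -0.64 (SE 0.133, adjusted p = 0.141). The change was smallest in SKOV3_TR. Its unadjusted p stayed under 0.05 with each line left out and with RPLP0 scaling. In the list of 6 such genes 1 fell and 1 rose at that threshold, against 7.18% and 7.99% of all genes. The other was ADSS1 with 0.45 (adjusted p = 0.271), which makes a precursor of AMP. ADSS1 was higher in 6 of 6 lines, as were 4.25% of all genes, at levels of 2.124 to 11.68 CPM with vehicle. ADSS2, the second ADSS gene of the list, was at 33.12 to 124.9 CPM with vehicle and stood at -0.009 (adjusted p = 0.977). The list median was -0.02. Among the 4 genes of PRPP supply, which makes the activated ribose, PRPSAP2 alone had a call. It rose by 0.34 (adjusted p = 0.282), against 7.99% of all genes with a rise at that threshold.

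DHODH, the mitochondrial enzyme between CAD and UMPS, fell by 0.41 (SE 0.161, adjusted p = 0.261) on the log2 scale. It was the 1 of 3 other pyrimidine genes with a call, against 7.18% of all genes with a fall. Its log2 changes were -0.75 to -0.52 in the HeyA8 and OV2008 families and 0.11 and 0.03 in SKOV3 and SKOV3_TR. The call was lost without HeyA8, HeyA8_MDR, OV2008 or OV2008_C13, and with RPLP0 scaling, at -0.22. UCK2, which salvages uridine and cytidine, was the 1 of 14 salvage genes with a call, against 15.2% of all genes, at -0.52 (SE 0.137, adjusted p = 0.161). It stood at -0.335 with RPLP0 scaling, without a call. TK1, which salvages thymidine, stood at -0.14 (adjusted p = 0.698).

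RRM2B, the p53-inducible counterpart of RRM2, rose by 0.83 (SE 0.214, adjusted p = 0.157). It was the 1 of 6 other genes of deoxynucleotide supply with a call, against 15.2% of all genes, 7.99% with a rise. It went from 287.2 to 496.4 CPM in HeyA8, from 264.4 to 542.3 in HeyA8_MDR, from 20.97 to 47.77 in OV2008 and from 24.9 to 91.31 in OV2008_C13, and from 51.08 to 51.78 in SKOV3 and from 37.99 to 39.97 in SKOV3_TR. Its level was about unchanged in the SKOV3 family, where RRM2 was higher with QC, and the difference of its QC change between families had an unadjusted p-value of 0.00101 (adjusted 0.147, edgeR). RRM1, the large subunit that pairs with either, stood at -0.12 (adjusted p = 0.689).

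In the folate one-carbon list, which feeds carbon to the purine ring and to thymidylate, 3 of 8 genes fell, against 7.18% of all genes, SHMT2 (named after its values were seen) at -0.33 (adjusted p = 0.32), MTHFD2 at -0.64 (SE 0.17, adjusted p = 0.164) and ALDH1L2 at -0.58 (adjusted p = 0.293). Without HeyA8, ALDH1L2 stood at -0.25 and SHMT2 at -0.20, both with no call, and MTHFD2 kept its call at -0.55. MTHFD2 was lower in 5 of 6 lines, most in SKOV3_TR, from 291.1 to 120.9 CPM. Of the 11 nucleotide breakdown genes tested 2 fell, against the same 7.18%, AMPD2 by 0.39 (adjusted p = 0.18) and NT5C by 0.37 (adjusted p = 0.324) on the log2 scale, and AMPD2 lost its call with RPLP0 scaling, at -0.21. In each of these 7 lists 0 genes passed after adjustment. MYC stood at -0.26 (adjusted p = 0.359), lower in 5 of 6 lines. Of the 6 genes of MYC and its partners 1 passed the unadjusted threshold, against 15.2% of all genes. This was the MYC antagonist MXD1, with 0.83 (adjusted p = 0.131).

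Beside TYMS, its antisense neighbours had calls of opposite sign over the 6 lines. ENOSF1 was lower with QC in 6 of 6 lines and fell by 0.44 in the fit (SE 0.122, adjusted p = 0.169), a call lost with RPLP0 scaling, at -0.25. TYMSOS was higher in 6 of 6 lines and rose by 0.99 in the fit (SE 0.278, adjusted p = 0.169), from low levels between 0.3341 and 8.558 CPM with vehicle, and most in HeyA8, from 1.593 to 8.027 CPM, close to the 8.558 CPM of HeyA8_MDR with vehicle. Without HeyA8 the fit gave 0.72 and the unadjusted p stayed under 0.05. TYMS itself was higher in 4 lines and lower in 2, so the 3 overlapping genes had 3 different patterns, with the limit on strand given above.

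**Figure D5:**
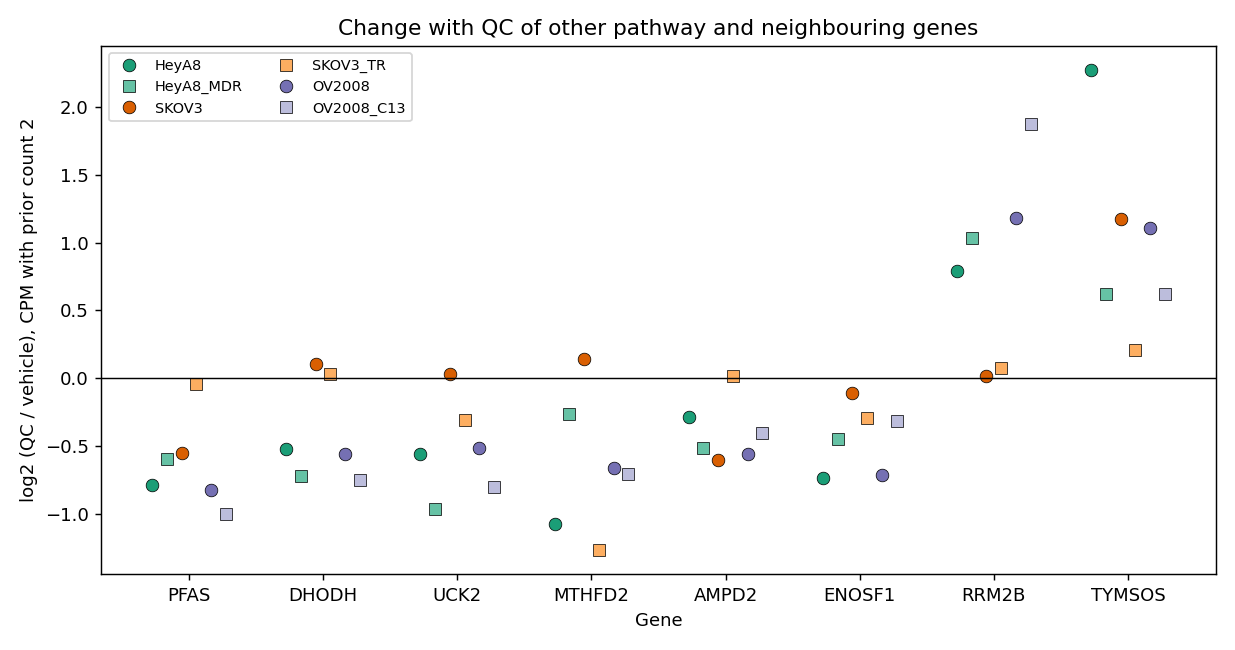
Log2 ratio of QC to vehicle CPM (prior count 2, y axis) in the 6 lines for 6 other pathway genes and the 2 antisense neighbours of TYMS (x axis), with circles for sensitive and squares for resistant lines. PFAS and ENOSF1 lie below 0 in 6 of 6 lines, TYMSOS lies above 0 in 6 of 6, and the SKOV3 and SKOV3_TR points of RRM2B lie at 0.02 and 0.07.

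The gene whose level was most like each member's over the 12 libraries, among 18594 tested genes with a symbol, was TTLL4 for CAD (r = 0.949), DHX34 for UMPS (0.976), SDF2L1 for IMPDH2 (0.984), PPP1R1C for PPAT (0.977), TMEM97 for PAICS (0.969), FIGNL1 for GART (0.972), FARSB for ATIC (0.981), CPNE7 for TYMS (0.956) and LINC00857 for RRM2 (0.986). These are Pearson correlations of log2 CPM over libraries that come in pairs from 6 lines, so they mostly follow the lines, and the best of 18594 is high for any gene. Within the 9, PAICS and ATIC had the highest correlation of levels (r = 0.942), and ATIC and RRM2 the highest correlation of QC changes (r = 0.969 over 6 lines). Of the 18594 genes 310 had changes with r over 0.9 to those of ATIC, and 292 to those of RRM2. Whether the members form groups was not tested.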

How the data were processed

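Libraries were made with the TruSeq RNA kit from polyA RNA. The deposited table holds raw counts per gene, which the authors made with HTSeq and did not normalise. The submitters' notes name STAR 2.7.3a, HTSeq 0.6.1p1 and GRCh38.p13, while the methods of the study name TopHat, HTSeq and hg19, and this was not resolved. Annotation and strand setting are not given in the sources used here.

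Symbols were paired by Ensembl ID without version (58620 of 60669 IDs, 99.87% of counts). Counts were tested in R 4.3.3 with edgeR 4.0.16 (TMM, filterByExpr with a minimum count of 10, quasi-likelihood, two-sided, Benjamini-Hochberg over 18720 genes), with cell line as block for QC and family as block for resistance. Pairing follows from the shared line, and deviations from the treatment means correlated at r = 0.893 to 0.929 within a line. DESeq2 1.42.0 and other settings served as alternatives. Fits were tested on simulated data. Line values are log2 ratios of CPM with a prior count of 2. Exon lengths join all transcripts of a gene in GENCODE.

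All 9 members are named, with the 2 genes of smallest p in each related list at most, and RRM1, TK1, RRM2B, MYC, PCNA, MCM6 and CCNE2, and 1 further gene of that rule is not reported here. SON, ENOSF1 and TYMSOS (neighbours), ADSS2, CDT1, CDCA7 and MXD1 were named after their values were seen. Members and lists were chosen with earlier results of these data known. Plots used matplotlib 3.10.9.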

Additional observations from a re-analysis of the deposited data

Results flagged for a closer look

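The log2 QC change of UMPS in HeyA8_MDR, -0.93, stood apart from the other 5 lines, which lay between -0.35 and -0.04. Its distance from the nearest line was larger than Dixon's 95% critical value for 6 values, which chance exceeds in about 1 in 20 groups. CAD, with -1.52 in the same line, did not exceed it.

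The QC change of 4 members differed between the 3 families at an unadjusted p under 0.05 in edgeR's quasi-likelihood F test, against 14% of all genes. The p-values were 0.00148 for TYMS, 0.00199 for RRM2, 0.00554 for CAD and 0.03 for ATIC, and 0 of 9 passed after adjustment. TYMS was higher with QC in 4 of 4 lines of the HeyA8 and SKOV3 families and lower in 2 of 2 lines of the OV2008 family. The HeyA8 QC library among these lay part of the way toward HeyA8_MDR. RRM2 was higher in 2 of 2 SKOV3 lines and lower in 2 of 2 OV2008 lines. CAD had its smallest changes in the SKOV3 family, and ATIC its lowest log2 changes in the OV2008 family. The test took the lines of a family as its replicates and was chosen after the values by line were seen.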

How the results depend on the processing

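The 9 members and 13 other named genes were recomputed under DESeq2, RLE scaling, no filter, a minimum of 10 counts in every library, no replicate block, RPLP0 scaling and each line or family left out, giving 852 alternative values of which 719 kept their direction and their side of the threshold. The family test, its alternatives and those of the other pathway genes were chosen after seeing the data. The count over 6 lines moved from 2 members to 0 with no replicate block and to 0 with RPLP0 scaling, and ran from 1 to 2 with a line left out. Without an expression filter 1 member, CAD, passed after adjustment. In resistant lines the 2 calls became 0 with no replicate block, 0 with RPLP0 scaling and 0 to 2 with a line left out, the 0 being without HeyA8_MDR. In sensitive lines the count ran from 0 to 1 (TYMS, without OV2008), and for the difference between groups from 0 to 1 (PAICS, without OV2008_C13). Between resistant and sensitive vehicle libraries the 2 calls became 1 (TYMS) in the QC libraries, 0 with no replicate block and 0 to 1 with a family left out. Between families 5 unadjusted calls became 3 in the QC libraries, and the 1 adjusted call became 5 with DESeq2, 6 without a filter and 2 in the QC libraries. The QC change between families had 0 adjusted calls but 4 with DESeq2, 3 without a filter and 0 to 2 with a line left out. Over all genes, the unadjusted counts fell from 2840 to 117 over 6 lines, from 1234 to 30 in sensitive, from 1128 to 23 in resistant lines, from 217 to 6 for their difference and from 694 to 124 between vehicle libraries with no replicate block. Adjusted counts over 6 lines were 0 in edgeR, 522 in DESeq2 and 791 without a filter, and for the QC change between families 0, 834 and 961. Between families the 4321 adjusted calls became 6968 and 7559. Without HeyA8_MDR the count in resistant lines was 415. With RPLP0 scaling the median of all genes stood at 0.183 over 6 lines, 0.289 in sensitive lines, 0.081 in resistant lines and -0.201 for their difference. With TMM scaling it stood at 0, 0.015, -0.012 and -0.02. This scaling holds RPLP0 level. With TMM scaling RPLP0 itself had fitted changes of -0.184 over 6 lines, -0.275 in sensitive lines, -0.092 in resistant lines and 0.183 for their difference. The cause of the RPLP0 change and of the other shifts in counts was not tested.

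Changes of sign were all among values without a call. With RPLP0 scaling IMPDH2 stood at 0.12 and PAICS at 0.052 over 6 lines, UMPS at 0.093, IMPDH2 at 0.27, ATIC at 0.06 and RRM2 at 0.23 in sensitive lines, and GART at -0.007 and ATIC at -0.15 for the difference, each still on its earlier side of the shifted median of all genes, so these signs follow the scaling. With no replicate block RRM2 stood at -0.26 over 6 lines, PAICS at -0.069 and RRM2 at -0.064 in resistant lines, and GART at -0.07 and RRM2 at -0.25 between vehicle libraries. In sensitive lines IMPDH2 stood at 0.007 without a filter and 0.003 with 10 counts in every library. With 1 line left out, RRM2 ran from -0.074 to 0.183 over 6 lines. In sensitive lines IMPDH2 ran from -0.114 to 0.127 and RRM2 from -0.372 to 0.236. In resistant lines IMPDH2 ran from -0.31 to 0.013, PPAT from -0.053 to 0.113, PAICS from -0.177 to 0.354, ATIC from -0.347 to 0.031, TYMS from -0.091 to 0.373 and RRM2 from -0.086 to 0.537. For the difference CAD ran from -0.606 to 0.076, IMPDH2 from -0.29 to 0.029, PPAT from -0.175 to 0.039, GART from -0.023 to 0.286, ATIC from -0.119 to 0.256, TYMS from -0.595 to 0.125 and RRM2 from -0.088 to 0.6. With 1 family left out, the vehicle difference of GART ran from -0.291 to 0.342 and that of RRM2 from -0.703 to 1.447.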
